A study of Mus musculus with 8 samples.

Results

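The machinery that makes microRNAs and silences their targets was represented here by 9 genes, chosen by name for their known roles: Drosha, Dgcr8, Xpo5, Dicer1, Tarbp2, Ago1, Ago2, Tnrc6a and Tnrc6b. The choice was made with earlier results of these data known, so the set is not independent of the values below. Together the 9 genes had 23 of the 45281 probes of an Illumina mouse bead array. Each of 8 arrays held RNA of the whole kidney of 1 adult male C57/bk mouse, taken 7 days after unilateral ureteral obstruction (UUO), an operation that ties off a ureter and leads to inflammation and fibrosis of that kidney. Of the 8 mice, 4 had received a control antimiR and 4 had received anti-miR-214, an antisense oligonucleotide made to bind and block the microRNA miR-214. All 8 mice had an obstructed kidney, so both groups describe injured tissue, and unobstructed kidneys were not analysed here. The dose, chemistry and schedule of both oligonucleotides are not given in the sources used here.

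MicroRNAs are cut from long primary transcripts in the nucleus by the Microprocessor, in which the RNase III enzyme Drosha works with the RNA-binding protein Dgcr8. Exportin 5 (Xpo5) carries the resulting hairpin to the cytoplasm, where Dicer1, bound by its partner Tarbp2, cuts it to a short duplex. One strand is loaded into an Argonaute protein such as Ago1 or Ago2, and the TNRC6 (GW182) proteins Tnrc6a and Tnrc6b link the Argonaute to the enzymes that shorten and decap the target mRNA. An antimiR acts on the loaded strand, downstream of the processing enzymes.

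The 2 mature strands of mouse miR-214, from RefSeq on GRCm38.p6, are shown because the oligonucleotide is named for this microRNA. The seed (bases 2 to 8, the stretch that pairs with targets) is in capitals. The strands lie on the plus strand at chr1:162223438-162223459 (3p) and chr1:162223397-162223418 (5p), and their seeds differ.
mmu-miR-214-3p: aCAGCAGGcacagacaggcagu
mmu-miR-214-5p: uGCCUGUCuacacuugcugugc

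On the first principal component of the tested probes, which held 55.8% of the variance, the controls lay between -33.8 and -27.1. The treated arrays split there, with replicates 3 and 4 (46.2, 49.1) standing apart from replicates 1 and 2 (14.5, 15.4).

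Of the 9 members, 8 had at least 1 probe that could be tested, that is, detected above background (detection p under 0.05) on at least 4 of the 8 arrays. With each gene read from its brightest tested probe, Tarbp2, Tnrc6b, Drosha and Xpo5 were higher after anti-miR-214, by 1.75-fold, 1.64-fold, 1.36-fold and 1.36-fold. Ago2 was lower, by 1.33-fold. Dgcr8, Dicer1 and Tnrc6a did not pass the test, and Ago1 was not detected on any array. Thus 4 members rose against a background of 12.3% of the 10734 named genes tested, and 1 fell against a background of 9.93% (limma, Benjamini-Hochberg adjusted p under 0.05 over all 18601 tested probes; 22.3% in either direction). The median log2 change of the 8 tested members was 0.44, beside 0.09 over all named genes tested, and 7 of the 8 lay above 0, as did 6390 of the 10734 named genes. Leaving out control replicate 2 or anti-miR-214 replicate 3 brought the count of risen members to 1, Tarbp2. Without anti-miR-214 replicates 3 and 4 together, Tarbp2 rose by 0.65 (adjusted p = 0.0467), no other member rose and none fell, with 4 risen and 1 fallen at an unadjusted p under 0.05 (limma). The count of fallen members went to 0 without control replicate 1, 2 or 4 or without anti-miR-214 replicate 1 or 3, with 1 at an unadjusted p under 0.05 each time (limma).

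**Figure D1:**
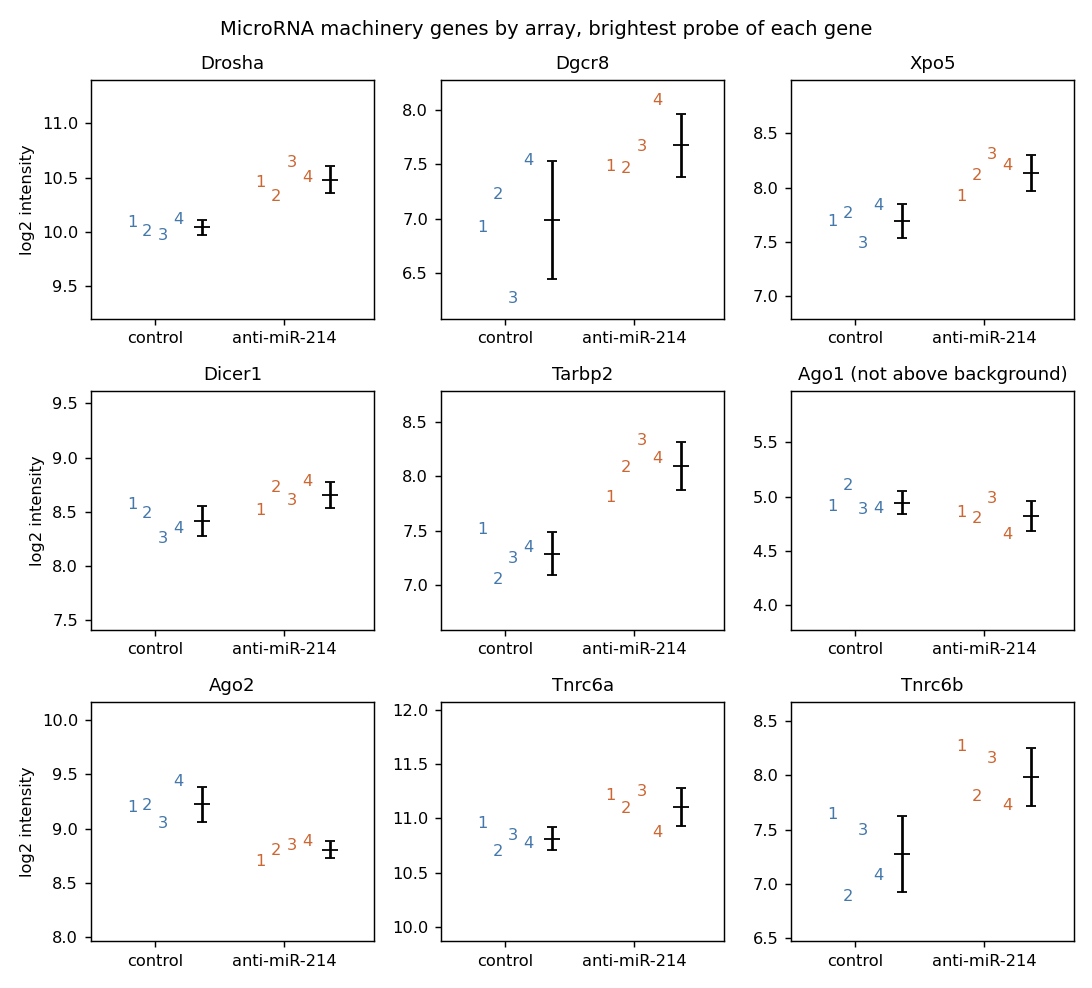
Log2 normalized intensity of the brightest probe of each member on each of the 4 control antimiR and 4 anti-miR-214 arrays, with replicate numbers as markers and bars for the group mean ± SD; each panel has its own axis, and Ago1 was not above background. The groups do not overlap for Tarbp2, Tnrc6b, Drosha and Xpo5 (anti-miR-214 higher) or for Ago2 (anti-miR-214 lower).

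All values below are log2 intensities after background correction and quantile normalization, and levels of different probes cannot be set against each other. In whole kidney, fewer cells of a type and less RNA per cell cannot be told apart. The nuclear step comes first. Drosha, the catalytic subunit of the Microprocessor, read 10.08, 10.005, 9.97 and 10.11 on the control arrays and 10.46, 10.33, 10.64 and 10.50 on the anti-miR-214 arrays by its brightest probe (ILMN_3066222). Every anti-miR-214 array lay above every control array, an arrangement found for 15.1% of all tested probes. The means were 10.04 ± 0.07 and 10.48 ± 0.13 (SD, n = 4 each), a change of 0.44 with a standard error of 0.11 and a 95% confidence interval of 0.19 to 0.68 (limma, adjusted p = 0.0171). The rise was 0.46 among the 6 arrays of the first slide and 0.39 between the 2 arrays of the second. The call was lost without control replicate 2 (adjusted p = 0.0507) or without anti-miR-214 replicate 3 (adjusted p = 0.0512). A dimmer Drosha probe (ILMN_3144358) read 8.77 to 8.84 in controls and 8.79 to 9.15 after anti-miR-214, a change of 0.13 that did not pass (adjusted p = 0.403).

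Dgcr8, the double-stranded RNA-binding partner of Drosha, had 1 probe (ILMN_1226133). It read 6.92, 7.22, 6.27 and 7.54 on the control arrays and 7.48, 7.46, 7.66 and 8.09 on the anti-miR-214 arrays. Control replicate 3 was the lowest array and control replicate 4 lay within the range of the treated arrays, so the groups overlapped. The change of 0.69 (95% confidence interval 0.14 to 1.24) did not pass (limma, adjusted p = 0.0632). It did pass with the slide as a block (adjusted p = 0.024), which brought the risen members to 5, and without control replicate 4 (adjusted p = 0.0333). The Dgcr8 transcript also carries a microRNA hairpin, Mir1306, of the kind that its own complex cuts. The hairpin, from RefSeq on GRCm38.p6, lies on the minus strand at chr16:18284239-18284317 and is shown with both mature arms in capitals to display the shape of a Microprocessor substrate inside a member gene.
Mir1306 hairpin: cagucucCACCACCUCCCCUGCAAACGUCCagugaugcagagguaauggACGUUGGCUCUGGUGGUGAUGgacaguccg

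Xpo5, the export receptor for precursor hairpins, had 1 probe (ILMN_1216198). Its log2 values were 7.69, 7.76, 7.48 and 7.84 on the control arrays and 7.92, 8.11, 8.31 and 8.20 on the anti-miR-214 arrays. The groups did not overlap, and the means rose from 7.69 ± 0.15 to 8.13 ± 0.16 (SD, n = 4 each). The change was 0.44 with a standard error of 0.13 (95% confidence interval 0.16 to 0.72, limma adjusted p = 0.0292). The intensities before normalization were 363, 385, 335 and 341 on the control arrays and 382, 370, 389 and 374 on the anti-miR-214 arrays, and these did overlap. Before normalization the groups also overlapped for the brightest probes of Drosha (controls up to 1320, anti-miR-214 down to 1316) and Tnrc6b (controls up to 355, anti-miR-214 down to 296). Those of Tarbp2 and Ago2 did not overlap. The share of all probes without overlap before normalization was not counted, so nothing is read from this for Tarbp2 and Ago2. The Xpo5 call was lost without control replicate 1, 2 or 3 or without anti-miR-214 replicate 3 or 4 (adjusted p = 0.0577 to 0.0824).

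At the Dicer step Tarbp2 rose by its brightest probe, and no probe of Dicer1 passed. Tarbp2, which holds Dicer1 and helps pass the duplex to an Argonaute, read 7.51, 7.05, 7.24 and 7.35 on the control arrays and 7.80, 8.08, 8.33 and 8.16 on the anti-miR-214 arrays (ILMN_2939990). The lowest treated array lay above the highest control array. The means rose from 7.29 ± 0.20 to 8.09 ± 0.22 (SD, n = 4 each), a change of 0.81 with a standard error of 0.15 (95% confidence interval 0.48 to 1.13, limma adjusted p = 0.00428). The rise was 0.80 on the first slide and 0.82 on the second, and it passed with any 1 array left out. The other Tarbp2 probe (ILMN_2649955) read 6.46 to 6.81 in controls and 6.65 to 7.15 after anti-miR-214, a change of 0.23 that did not pass (adjusted p = 0.248). The difference between Tarbp2 and Dicer1 was not tested.

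Dicer1, the cytoplasmic RNase III enzyme, was read by 3 tested probes and passed with none of them. The brightest (ILMN_2483253) gave 8.56, 8.48, 8.25 and 8.35 on the control arrays and 8.52, 8.73, 8.60 and 8.78 on the anti-miR-214 arrays. The groups overlapped through control replicate 1, and the change was 0.24 (95% confidence interval -0.02 to 0.51, limma adjusted p = 0.15). A second probe of the same transcript (ILMN_1215331) read 7.93 to 8.01 in controls and 7.86 to 7.98 after anti-miR-214, a change of -0.05 (adjusted p = 0.746). The last (ILMN_1221840), annotated to a cDNA clone rather than a RefSeq transcript, read 7.24, 7.43, 7.12 and 7.72 against 6.03, 6.72, 7.48 and 6.97. Its change of -0.58 did not pass (adjusted p = 0.127). It did pass in 4 of 21 alternatives. Among these were leaving out anti-miR-214 replicate 3 (adjusted p = 0.0416) and scaling each array to a common median of all probes (-0.90, adjusted p = 0.0131).

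Of the Argonautes, which hold the guide strand, Ago2 is the one that can itself cut a fully paired target. Its brightest probe (ILMN_2476341) read 9.20, 9.21, 9.04 and 9.43 on the control arrays and 8.70, 8.80, 8.85 and 8.88 on the anti-miR-214 arrays. Each anti-miR-214 array lay below each control array, which held for 13.8% of all tested probes. The means fell from 9.22 ± 0.16 to 8.81 ± 0.08 (SD, n = 4 each), a change of -0.42 with a standard error of 0.12 (95% confidence interval -0.68 to -0.16, limma adjusted p = 0.0268). The fall was -0.37 on the first slide and -0.55 on the second. The call was lost without control replicate 1, 2 or 4 or without anti-miR-214 replicate 1 or 3 (adjusted p = 0.0528 to 0.0641). The second Ago2 probe (ILMN_1213149) read 8.65 to 8.83 in controls and 8.31 to 8.83 after anti-miR-214, a change of -0.18 (adjusted p = 0.325). With each array scaled to a common median of all probes it fell past the threshold (-0.41, adjusted p = 0.0474). The dimmest probe (ILMN_2609056) gave 0.10 (adjusted p = 0.752) and was detected on 4 control and 3 anti-miR-214 arrays. The only Ago1 probe (ILMN_2693706) read 4.65 to 5.10 over the 8 arrays and was not well above background on any of them, so no change of Ago1 could be measured.

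The TNRC6 proteins, the scaffolds that join an Argonaute to the deadenylases, were read by 10 probes, of which 6 were tested. Tnrc6b rose by its brightest probe (ILMN_1257759), from 7.64, 6.88, 7.49 and 7.08 on the control arrays to 8.27, 7.81, 8.15 and 7.72 on the anti-miR-214 arrays. The groups did not overlap, though control replicate 1 was close to anti-miR-214 replicate 4. The means were 7.27 ± 0.35 and 7.99 ± 0.26 (SD, n = 4 each), a change of 0.71 with a standard error of 0.19 (95% confidence interval 0.29 to 1.13, limma adjusted p = 0.0208). The call was lost without control replicate 2 or 4 or without anti-miR-214 replicate 3 (adjusted p = 0.0555 to 0.0609).

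Both other tested Tnrc6b probes were annotated to another transcript than the brightest one. Of them, ILMN_3035435 read 6.17 to 6.52 in controls and 6.49 to 6.88 after anti-miR-214. Its change of 0.39 did not pass (limma, adjusted p = 0.0512), and it passed without anti-miR-214 replicate 1 (adjusted p = 0.0271). The other, ILMN_3109164, read 6.19, 5.93, 5.93 and 6.36 on the control arrays and 5.32, 5.31, 5.70 and 5.97 on the anti-miR-214 arrays. It was detected on all 4 control arrays and on 1 anti-miR-214 array, so it entered the test through the group in which it was higher. It was past the threshold (limma, adjusted p = 0.0456), but for that reason this is not read as a fall of Tnrc6b and no size is given. The call was lost when any 1 array other than anti-miR-214 replicate 4 was left out (adjusted p = 0.0592 to 0.109).

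Tnrc6a did not pass. Its brightest probe (ILMN_2440997) read 10.95, 10.69, 10.84 and 10.77 on the control arrays and 11.21, 11.09, 11.25 and 10.87 on the anti-miR-214 arrays, a change of 0.29 (95% confidence interval 0.02 to 0.56, limma adjusted p = 0.104). Anti-miR-214 replicate 4 lay among the controls and the other 3 above them. The other tested Tnrc6a probes changed by 0.09 (adjusted p = 0.607) and 0.06 (adjusted p = 0.796). The remaining 4 TNRC6 probes, 2 for each gene, were not well above background on any array.

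**Figure D2:**
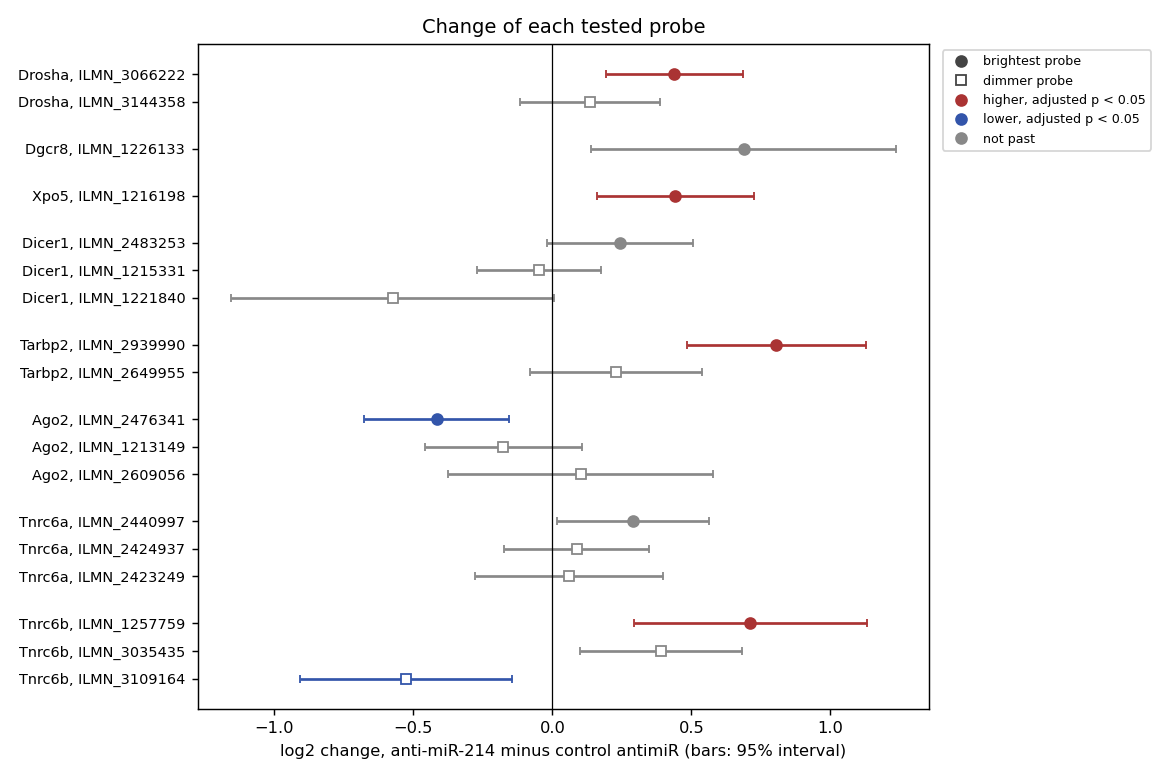
Log2 change (anti-miR-214 minus control antimiR) of every tested member probe with its 95% confidence interval, grouped by gene with the brightest probe (filled circle) above the dimmer ones (open squares) and colour for an adjusted p under 0.05. The second Tarbp2 probe, the Dicer1 probe of the cDNA clone and the dim Tnrc6b probe lie apart from the brightest probe of their gene, and Ago2 is the one gene whose brightest probe lies below 0.

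Probes of a gene can read different transcript ends or isoforms, so their changes were set against each other within each array. Over the 18 tested member probes, 4 rose, the brightest Ago2 probe fell and 12 did not pass. The remaining one, the Tnrc6b probe detected on 1 anti-miR-214 array, was tested only through the controls, so it is not counted as a fall. Over all tested probes, 11.8% were higher, 13.8% lower and 25.6% past the threshold in either direction. Among the 6 members with more than 1 tested probe there were 10 pairs of the brightest probe and another. In 3 of them the change differed past the threshold, a count near the 28.1% of the 5307 such pairs on the whole array, so it is no trait of the members. One of the 3 rests on the dim Tnrc6b probe. Because that probe was tested only through the controls, its pair is not read as a difference and no size is given. Relative to the brightest probe of its gene, the Dicer1 probe of the cDNA clone changed by -0.82 (limma on the within-array difference, adjusted p = 0.0374) and the second Tarbp2 probe by -0.58 (adjusted p = 0.032). For Drosha the difference of -0.30 was not past the threshold (adjusted p = 0.113), nor were the differences for Ago2 and Tnrc6a. When all tested probes of a gene were averaged, Tarbp2 at 0.52 (adjusted p = 0.0139) and Xpo5 at 0.44 (adjusted p = 0.0273) passed. Drosha at 0.29 (adjusted p = 0.0529), Tnrc6b at 0.19 (adjusted p = 0.206) and Ago2 at -0.16 (adjusted p = 0.296) then did not. The average for Tnrc6b takes in the dim probe that was tested only through the controls.

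The promoters of the 4 members that rose are shown because these genes moved in the same direction. Each window runs from 250 bases before to 50 after the annotated start, from RefSeq on GRCm38.p6, and capitals mark matches on either strand to CCAAT, to GCATGC or to CCGGAA. The windows are chr15:12824565-12824864 for Drosha, chr15:80711063-80711362 for Tnrc6b, chr15:102517942-102518241 for Tarbp2 and chr17:46202561-46202860 for Xpo5, all on the plus strand.
Drosha: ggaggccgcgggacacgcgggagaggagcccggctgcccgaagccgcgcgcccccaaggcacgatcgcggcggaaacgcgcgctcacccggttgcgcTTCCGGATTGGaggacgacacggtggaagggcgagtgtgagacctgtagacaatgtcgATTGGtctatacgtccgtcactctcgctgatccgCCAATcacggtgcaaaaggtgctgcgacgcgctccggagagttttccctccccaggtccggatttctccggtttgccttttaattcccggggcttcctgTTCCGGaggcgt
Tnrc6b: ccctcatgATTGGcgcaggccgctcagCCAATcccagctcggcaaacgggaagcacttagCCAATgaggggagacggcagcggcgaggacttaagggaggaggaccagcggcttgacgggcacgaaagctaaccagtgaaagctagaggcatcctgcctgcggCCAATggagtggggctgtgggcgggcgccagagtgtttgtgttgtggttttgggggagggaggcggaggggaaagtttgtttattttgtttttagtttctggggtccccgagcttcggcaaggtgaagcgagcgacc
Tarbp2: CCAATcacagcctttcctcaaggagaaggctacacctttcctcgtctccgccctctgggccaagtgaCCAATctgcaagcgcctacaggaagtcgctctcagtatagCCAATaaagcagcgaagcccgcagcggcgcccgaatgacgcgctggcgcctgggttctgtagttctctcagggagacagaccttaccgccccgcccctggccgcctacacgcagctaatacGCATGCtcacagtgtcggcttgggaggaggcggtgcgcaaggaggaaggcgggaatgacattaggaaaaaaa
Xpo5: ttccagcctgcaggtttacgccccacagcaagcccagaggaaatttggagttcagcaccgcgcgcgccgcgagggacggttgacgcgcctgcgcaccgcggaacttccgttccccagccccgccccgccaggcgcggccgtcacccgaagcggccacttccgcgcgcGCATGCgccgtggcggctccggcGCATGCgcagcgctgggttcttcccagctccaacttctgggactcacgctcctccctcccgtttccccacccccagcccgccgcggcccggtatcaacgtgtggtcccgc

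CCAAT, read as ATTGG on the other strand, is the box bound by the factor NF-Y. It occurred 3 times in the Drosha window, 4 times in this Tnrc6b window and 3 times in the Tarbp2 window, and 0 times in the Xpo5 window. Of the members that did not pass, Dgcr8 had 4 matches, Dicer1 had 1 and Tnrc6a had 0. The box was present in 37.4% of all 32851 promoter windows. A second annotated Tnrc6b window held none. The palindrome GCATGC, the centre of an NRF1 site, occurred 2 times in the Xpo5 window, 1 time in the Tarbp2 window, in none of the other member windows and in 7.93% of all windows. CCGGAA, read as TTCCGG on the other strand, the core of an ETS site, occurred 2 times in the Drosha window and in 14.9% of all windows. The first of these directly adjoins a CCAAT match, without overlap. TATAAA, read as TTTATA on the other strand, was in none of the member windows and in 13.6% of all. The windows shown were 59.0% to 71.3% G or C, beside a median of 52.7% over all windows, and the shares were not adjusted for this. A match is a string of letters and no evidence of binding, and 8 of the 9 members had a window in the table.

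The wider pathway was read from 79 other genes in lists ordered by step, of which 75 were on the array and 61 were tested. By their brightest probes 7 were lower, 5 were higher and 49 did not pass, with a median change of 0.12, beside 9.93% lower and 12.3% higher over all named genes. Among the partners of the Microprocessor and of nuclear export, 3 of 9 tested genes fell and none rose. Ddx5, a DEAD-box helicase that binds the Microprocessor, read 7.36, 7.80, 7.98 and 7.77 on the control arrays and 6.32, 6.20, 6.21 and 6.25 on the anti-miR-214 arrays. Every treated array was far below every control array, and the change was -1.48 (standard error 0.14, limma adjusted p = 0.000382). Hnrnpa1, an RNA-binding protein that helps process certain microRNAs, fell by 0.97 (adjusted p = 0.0177), and its other tested probe fell by 1.22 (adjusted p = 0.026). Ran, the GTPase that Xpo5 needs to hold its cargo, fell by 0.54 (adjusted p = 0.0267), and it was detected on 3 of the 4 treated arrays. So within this first step Drosha and Xpo5 were higher while Ddx5 and Ran were lower. Ddx5 and Ran each had 3 probes on the array, of which 1 was tested. On the treated arrays these dim probes read 186 to 216 (Ddx5) and 179 to 222 (Ran) before normalization, where array medians were 153 to 173. The calls of Ran and Hnrnpa1 were lost when single arrays were left out (adjusted p = 0.0504 to 0.0639), among them anti-miR-214 replicate 3 for both (0.0592 and 0.053), and that of Ddx5 was not.

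In the list of Dicer and Argonaute loading partners, 1 of 11 tested genes rose and none fell, beside 12.3% higher and 9.93% lower over all named genes. It was Fkbp4, an Hsp90 co-chaperone, with a change of 0.41 (limma, adjusted p = 0.0327). Its call was lost with each array scaled to a common median of all probes (0.37, adjusted p = 0.0804), and without control replicate 1, 2 or 4 or without anti-miR-214 replicate 3 or 4 (adjusted p = 0.0559 to 0.0871). Of the related Argonautes, named here whatever their values, Ago3 changed by 0.28 (adjusted p = 0.075) and Ago4 by -0.24 (adjusted p = 0.266). Prkra, the Dicer partner akin to Tarbp2, changed by -0.18 (adjusted p = 0.342).

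Among the partners of the silencing complex 2 of 10 tested genes rose and none fell, beside 12.3% higher and 9.93% lower over all named genes. Ddx6, a DEAD-box helicase that represses translation of microRNA targets, read 9.20, 9.32, 9.36 and 8.53 on the control arrays and 9.89, 10.20, 10.13 and 10.15 on the anti-miR-214 arrays. Control replicate 4 was the lowest array and all treated arrays lay above all controls. The change was 0.99 (standard error 0.18, limma adjusted p = 0.00426), while 3 dimmer Ddx6 probes changed by -0.12, 0.24 and -0.18 and none passed. Mov10, a helicase found with Argonautes, rose by 0.58 (adjusted p = 0.00899), and its other probe changed by -0.22 (adjusted p = 0.375). Scaled to a common median of all probes, the Mov10 change was 0.25 (adjusted p = 0.192), no longer past the threshold. A dimmer probe of Pabpc1, the poly(A)-binding protein, fell by 0.72 (adjusted p = 0.0113) while its brightest did not pass, and this gene too was named after its values were seen. The remaining TNRC6 gene, Tnrc6c, changed by 0.19 (adjusted p = 0.478).

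Of the deadenylation genes, whose enzymes the TNRC6 proteins recruit, 3 of 13 tested fell, 1 rose and 9 did not pass. Over all named genes 9.93% were lower and 12.3% higher, and a list this short was not set apart from those shares. Cnot1, the scaffold of the CCR4-NOT complex, read 7.92, 8.41, 8.34 and 8.31 on the control arrays and 7.55, 6.94, 6.20 and 5.81 on the anti-miR-214 arrays, the last of these groups spreading widely. Its change was -1.62 (standard error 0.31, limma adjusted p = 0.00558), and it was detected on 3 of the 4 treated arrays. Cnot1 had 5 probes on the array, of which 1 was tested. Before normalization this probe read 191 and 170 on anti-miR-214 replicates 3 and 4, where the array medians were 162 and 156. Cnot7, a catalytic subunit, fell by 0.54 (adjusted p = 0.00772), and Btg1, an adaptor of the complex, fell by 0.50 (adjusted p = 0.0254) with its other probe at -0.49 (adjusted p = 0.0366). Cnot10, a further subunit, rose by 0.50 (adjusted p = 0.00926), and by the median scaling of all probes its change was 0.29 (adjusted p = 0.0828). Among genes counted as not passing by the brightest probe, and named here after their values were seen, 3 of 5 tested Cnot2 probes fell (-0.85, -0.46 and -0.38, adjusted p = 0.00282, 0.0184 and 0.0362). The brightest Cnot2 probe changed the other way, by 0.27 (adjusted p = 0.104), as did the remaining one, by 0.29 (adjusted p = 0.11). A second probe rose for Cnot3 (0.75, adjusted p = 0.00652) and for Pan2 (0.49, adjusted p = 0.0157). These dimmer probes were picked because they passed, and 25.6% of all tested probes passed in either direction. The Btg1 call was lost without control replicate 1, 2 or 3 or without anti-miR-214 replicate 1 or 4 (adjusted p = 0.0509 to 0.0672).

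No gene of decapping and decay from the 5′ end passed, of 11 tested by limma, where 22.3% of all named genes passed in either direction. The smallest p in that list was that of Dcp1a, the decapping activator, with a change of 0.26 (unadjusted p = 0.0493, adjusted p = 0.123), and it was the only 1 of the 11 with an unadjusted p under 0.05. Among the enzymes of microRNA tailing and turnover 1 of 7 tested genes fell and 1 rose, beside 9.93% lower and 12.3% higher over all named genes. Tent2 (also called Papd4), a poly(A) polymerase that adds adenosines to microRNA ends, fell by 0.998 (standard error 0.16, adjusted p = 0.00214), and its other tested probe fell by 1.40 (adjusted p = 0.00147). Dis3l2, the exonuclease that degrades uridylated precursors, rose by 0.35 (adjusted p = 0.033), while its other probe changed by -0.19 (adjusted p = 0.407). A dimmer probe of Tut7, an enzyme that adds uridines to precursors, fell by 0.53 (adjusted p = 0.0164) while its brightest did not pass, and it too was named after its values were seen. The Dis3l2 call was lost with each array scaled to a common median of all probes (0.14, adjusted p = 0.431), and without control replicate 1, 2 or 3 or without anti-miR-214 replicate 3 or 4 (adjusted p = 0.066 to 0.0841).

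**Figure D3:**
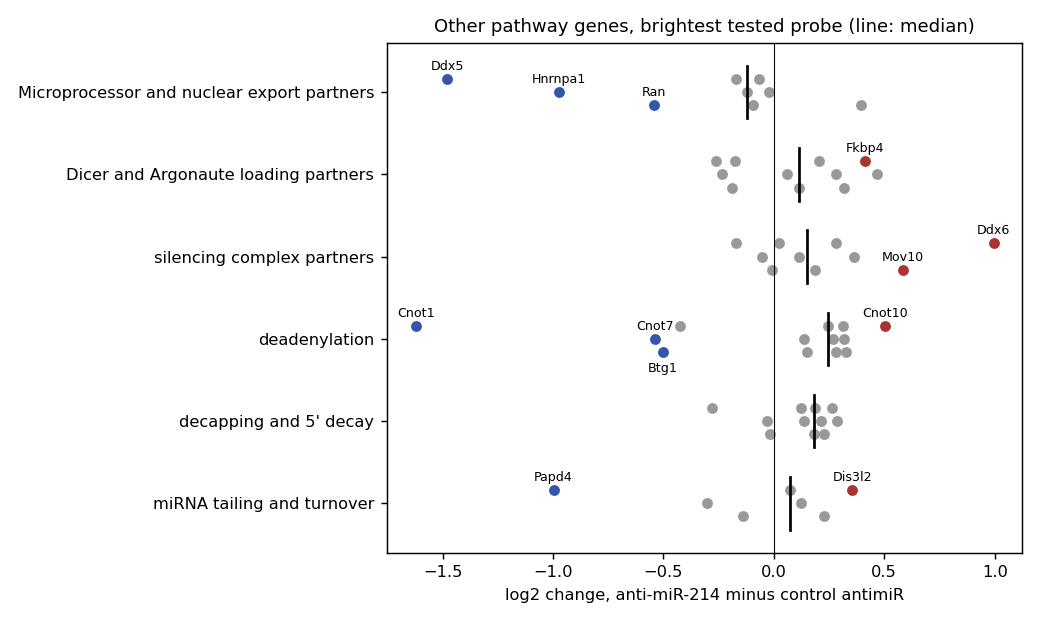
Log2 change (anti-miR-214 minus control antimiR) of each tested pathway gene by its brightest probe, 1 band of points per list with a line at its median; blue points were lower and red ones higher past the adjusted p threshold, and Tent2 is labelled Papd4. The points of each list lie on both sides of 0, and the farthest from 0 are Cnot1 and Ddx5 on the low side and Ddx6 on the high side.

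How the arrays were scaled set the level from which a change was read. Under quantile normalization the median change of all tested probes was 0.05 and 46.1% of the calls were higher. With each array scaled to a common median of all probes the median was -0.15 and 10.9% of the calls were higher. With no normalization it was -0.19 and 6.71%, and with a common median of the tested probes it was 0.13 and 60.1%. Read as fitted, the rises of Drosha (0.32, limma adjusted p = 0.0729), Xpo5 (0.16, adjusted p = 0.415) and Tnrc6b (0.40, adjusted p = 0.135) did not pass under the median of all probes, while those of Tarbp2 and the fall of Ago2 did. Under the median of the tested probes Tnrc6a passed at 0.47 (adjusted p = 0.0144), and Ago2 at -0.33 (adjusted p = 0.0613) did not. Read relative to the median of all tested probes, the changes moved little between quantile normalization and median scaling. Both median scalings and no normalization differ only by a constant per array. They therefore give the same relative change by construction, and their agreement is no sign of stability. Tarbp2 was 0.75 above that median under quantile normalization and 0.66 above it under either median scaling. The corresponding values were 0.66 and 0.56 for Tnrc6b, 0.39 and 0.47 for Drosha, 0.39 and 0.31 for Xpo5, and -0.47 and -0.47 for Ago2. Over 20 alternatives, which leave out the covariate described below, the brightest Tarbp2 probe passed in all 20, with a change relative to the median of 0.55 to 0.85. Drosha passed in 15, Tnrc6b in 13, Ago2 in 12 and Xpo5 in 11.

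**Figure D4:**
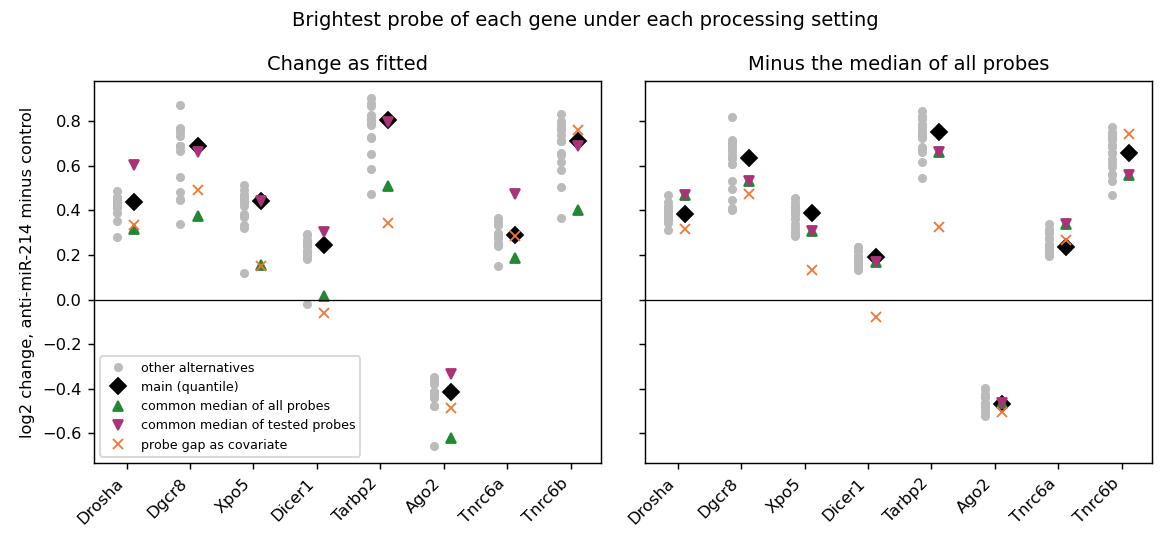
Log2 change of each member's brightest probe as fitted (left) and minus the median change of all tested probes (right), under the reported setting (diamonds) and each alternative. In the right panel both median scalings coincide by construction. Tarbp2 lies there between 0.55 and 0.85 outside the probe gap covariate (crosses), and Ago2 between -0.52 and -0.40.

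Other measures also moved with the treatment. The control arrays detected 41.8% to 43.1% of probes and the anti-miR-214 arrays 37.2% to 39.2% (two-sided p = 0.0286 in an exact permutation test, which can give no smaller value with 4 against 4). The probe gap is the mean, over pairs of probes of a gene, of a dimmer probe minus the brightest. It was -1.73 ± 0.03 log2 in controls and -1.85 ± 0.04 in treated arrays (SD, n = 4 each, exact p = 0.0286). The gap correlated with the group at -0.88 over the arrays, so the gap and the treatment cannot be told apart. With the gap as a covariate 0 members passed (limma), also at an unadjusted p under 0.05, and 3 of all tested probes passed the adjusted threshold. The members' median change was then 0.31, with Tarbp2 at 0.34, Tnrc6b at 0.76, Drosha at 0.33, Xpo5 at 0.15 and Ago2 at -0.49. Mean marker levels of fibroblasts and matrix were lower, at 10.34 to 10.90 in controls and 9.51 to 10.25 in treated kidneys, with 8 of 9 tested genes past the threshold. Macrophage markers (10.02 to 10.29 against 8.95 to 9.82, 3 of 8 lower) and endothelial markers (9.71 to 10.32 against 8.42 to 9.82, 3 of 5 lower) were lower too. Erythroid markers ranged from 10.73 to 11.16 in controls and from 8.89 to 11.33 in treated kidneys, with 2 of 4 lower. The mean of the podocyte markers was higher without overlap (8.78 to 8.97 against 9.07 to 9.23), with 1 of 4 past the threshold. That gene was Nphs1 (0.50), while Podxl changed by 0.36, Synpo by 0.11 and Ptpro by -0.02. The mean of 2 skeletal muscle markers was also higher without overlap (5.75 to 6.09 against 6.11 to 6.23), with neither past the threshold. How often a list mean separates the groups was not counted. T and NK cell markers ranged from 7.73 to 8.37 and from 8.20 to 8.87, with 1 of 5 higher. Of the collecting duct markers 1 of 4 was higher. Over all named genes 9.93% were lower and 12.3% higher. Proximal tubule markers ranged from 10.60 to 11.20 in controls and from 10.66 to 11.57 in treated kidneys, with 2 of 7 higher, and those of the thick limb and distal tubule from 12.52 to 12.80 and from 12.30 to 12.82, so kidney markers were present in both groups. Of the 5 adrenal markers none could be tested. The part of the array measures and of these cell types in the members' changes was not tested.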

How the data were processed

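RNA of 8 obstructed kidneys was labelled as biotinylated cRNA and hybridised to 1 Illumina bead array each, per the labels' protocols. The main deposited table held mean bead intensity values that the file headers call non-normalized, with a detection p-value beside each intensity, per the file headers. Processed intensity values of unstated making, also deposited, were an alternative. The scanner software and array build are not given in the sources used here. Columns of other series numbered 0.

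Intensities were background-corrected with an offset of 16, quantile-normalized and put on log2 by neqc in limma 3.58.1 (R 4.3.3), with the background inferred from the detection p-values. The offset pulls changes of dim probes toward 0, and quantile normalization hides a shift shared by all genes. Arrays have no read depth, and 4 arrays per group limit the precision. Probes with a detection p under 0.05 on at least 4 of 8 arrays were tested (18601). The group was the only term in lmFit and eBayes, with Benjamini-Hochberg adjustment over the tested probes and a threshold of 0.05. The script was tested on simulated data. Probes were named from the platform annotation: 34885 had 1 symbol, 18 had several and 10378 had none. A gene was read from its brightest tested probe. Named were all members with every probe, each pathway gene past the threshold, and the gene of smallest p in a list where none passed. The Argonaute, TNRC6 and Tarbp2 relatives were added for their family. The members and lists were chosen with earlier results of these data known. Slides came from the column names, the first with replicates 1 to 3 of both groups and the other with replicate 4 of both. The series' design gives 4 animals per group, and replicate numbers are not stated to pair animals. Alternatives covered scaling, background correction, filter, slide, replicate block, left-out arrays, the gap between probes and eBayes with trend.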

Additional observations from a re-analysis of the deposited data

Results flagged for a closer look

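Of 74 groups of 4 arrays examined, 3 held an array whose gap to the nearest other array was large for the range of its group, and chance gives about 1 in 20. The dim Ago2 probe ILMN_2609056 read 5.41 on anti-miR-214 replicate 3, where the other anti-miR-214 arrays read 6.30 to 6.37, and it was not detected on that array. The Tnrc6a probe ILMN_2424937 read 10.25 on control replicate 2, where the other controls read 10.52 to 10.54. Before normalization, the upper quartile of intensity was 276 on control replicate 4, where the other controls had 313 to 320.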

How the results depend on the processing

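The cause of each shift below was not tested. Over single probes, 516 comparisons with an alternative kept direction and side of the threshold, 103 lost the call, 13 gained it and 15 changed sign. None of those 15 was a call under the reported setting. With a common median of all probes, the lower counts were 4 member probes, 4509 of all probes and 13 other pathway genes, and the higher counts were 1 member, 1 member probe, 551 of all probes and 1 other pathway gene. Signs then turned for Drosha ILMN_3144358 (-0.080), Ago2 ILMN_2609056 (-0.088), Tnrc6a ILMN_2424937 (-0.020) and ILMN_2423249 (-0.075) and Tarbp2 ILMN_2649955 (-0.12). With no normalization, chosen after seeing the data, 4493 probes and 13 other pathway genes were lower, and 1 member, 1 member probe, 323 probes and 1 other pathway gene were higher. The same probes turned (-0.12, -0.13, -0.057, -0.11 and -0.15, in that order), as did Dicer1 ILMN_2483253 (-0.021) and Dcp1a (-0.0042). With a common median of the tested probes, also chosen after seeing the data, 0 members and 0 member probes were lower and 3455 probes and 9 other pathway genes higher. One member probe was lower under normexp with offset 50, under the authors' processed values (1 member pair differed), with no filter (2714 pairs of probes of one gene differed) and with detection on all 8 arrays (962 pairs). On slide 1 alone, 0 members, 1 member probe, 1474 probes and 4 other pathway genes were lower, 2 members, 2 member probes, 1075 probes and 3 other pathway genes higher, and 965 pairs and 1 member pair differed. Without anti-miR-214 replicates 3 and 4, 0 members, 962 probes and 3 other pathway genes were lower, 1 member, 1 member probe, 437 probes and 1 other pathway gene higher, and 719 pairs differed. With the probe gap as a covariate (correlation with the group -0.88), 3 probes were lower, 0 members, 0 member probes and 0 other pathway genes were lower, and 0 of each were higher. Dicer1 ILMN_2483253 turned to -0.060 and ILMN_1215331 to 0.049. With the mean of all tested probes, 0 members were lower, and 2 members and 2 other pathway genes higher. Leaving out 1 array gave 1 to 4 members higher and 0 to 1 lower, 1 to 5 member probes higher and 0 to 2 lower, 1222 to 2196 probes higher and 1741 to 2629 lower, 3 to 6 other pathway genes higher and 5 to 7 lower, and 1103 to 1605 pairs and 1 to 3 member pairs that differed. The probe gap difference was then -0.132 to -0.102 (exact p = 0.0286 to 0.0571), and Tnrc6a ILMN_2423249 ranged from -0.062, without control replicate 2, to 0.137. Same-numbered arrays correlated by 0.015, 0.063, 0.051 and 0.204 in their deviations, so the numbers were not taken to pair animals. With the replicate block, 5 members were higher and 1 lower, with Dgcr8 at adjusted p = 0.0309, and 2477 probes were lower and 2121 higher. With the slide as a block, 5 members were higher and Dgcr8 stood at adjusted p = 0.024. Ago1 and 4 TNRC6 probes were limited by signal over background.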
